A study of Mus musculus with 38 samples.

Results

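RNA from the lung interstitial macrophage populations IM2 and IM3 was compared, 3 libraries a side out of 12 in the series, or 20 of its 38 sequencing runs. The 6 libraries were taken by population, without regard to their values. All came from naive C57Bl/6 mice aged 8 to 10 weeks, with no further allele or treatment given. After enrichment for MerTK, live cells bearing CD64 and CD11b were sorted, and cells with Siglec F, CD24, CD43, Ly6G or the lymphocyte markers NK1.1, B220 and CD3 were left out. Both populations carried surface MHC class II. The labels give IM2 as CD206+ and CD11c lo, and IM3 as CD206 lo and CD11c+, so that the gates for CD206 and CD11c changed together. About 50000 cells gave the RNA of a library, and 2 ng of RNA with integrity numbers of 9.2 to 10.0 was amplified before sequencing. The series also holds IM1 (MHC class II low, CD206 high) and alveolar macrophages (AM), whose levels are given here only for reference. The labels do not state if the replicates, lettered A, B and C, were separate animals or pools, so p-values measure only the spread between libraries. That spread, the filter and the scaling were estimated from all 12 libraries, those of IM1 and AM included.

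Interstitial macrophages lie in the lung tissue, around airways, vessels and nerves, rather than in the airspace where alveolar macrophages are found. CD206, the mannose receptor encoded by Mrc1, binds and takes up mannosylated glycoproteins, and macrophages with much of it, together with LYVE1 and FOLR2, are known to sit beside vessels in many tissues. CD11c, encoded by Itgax, is an integrin chain that pairs with CD18 to form complement receptor 4, and it is found on dendritic cells and some macrophages. MHC class II molecules present peptides from the endocytic route to CD4+ T cells.

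The sequence around the start is printed for 3 genes from both directions of the comparison. Cd209f had the largest difference in favour of IM2, Itgax encodes the gated CD11c, and Mmp13 is a collagenase gene higher in IM3. The windows span 300 bases, from 250 before to 50 after the start. They come from RefSeq (build GRCm38.p6) and lie at chr8:4105715-4106014 on the minus strand for Cd209f, at chr7:128129300-128129599 on the plus strand for Itgax and at chr9:7272264-7272563 on the plus strand for Mmp13. Capitals mark the match to TGANTCA, the binding motif of AP-1 (Fos and Jun dimers). All 3 windows hold it, unlike most windows of the genes with the largest differences.
Cd209f: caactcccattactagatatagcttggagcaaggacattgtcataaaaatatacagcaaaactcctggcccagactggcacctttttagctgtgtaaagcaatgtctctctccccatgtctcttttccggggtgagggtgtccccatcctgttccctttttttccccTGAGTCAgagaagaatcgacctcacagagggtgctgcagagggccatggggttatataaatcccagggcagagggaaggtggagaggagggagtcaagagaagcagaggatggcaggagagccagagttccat
Itgax: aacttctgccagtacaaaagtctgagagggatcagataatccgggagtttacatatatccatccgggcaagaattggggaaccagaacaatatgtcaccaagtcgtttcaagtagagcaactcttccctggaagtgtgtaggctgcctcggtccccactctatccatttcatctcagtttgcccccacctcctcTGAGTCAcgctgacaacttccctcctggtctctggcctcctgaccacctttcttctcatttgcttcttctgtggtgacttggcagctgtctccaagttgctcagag
Mmp13: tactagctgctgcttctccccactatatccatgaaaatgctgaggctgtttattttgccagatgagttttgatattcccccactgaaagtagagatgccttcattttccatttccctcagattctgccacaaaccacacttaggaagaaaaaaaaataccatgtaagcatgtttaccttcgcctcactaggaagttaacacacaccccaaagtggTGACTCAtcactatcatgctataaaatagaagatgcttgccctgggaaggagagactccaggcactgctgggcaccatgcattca

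Of 30 genes with the largest differences, 15 in each direction, 24 had such a window. The AP-1 motif, searched on both strands, was in 2 of the 10 windows of genes higher in IM2 (Cd209f and Cd209g) and in 4 of the 14 of genes higher in IM3 (Itgax, Spint1, Tspan15 and Mmp13). In all promoter windows it was found in 7.93%, in those of tested genes in 5.07%, in 6.75% of 385 windows of genes at least 2-fold higher in IM2, and in 11.4% of 237 windows of genes at least 2-fold higher in IM3. The MAF half-site TGCTGAC, which can overlap the AP-1 motif, was in 4.94% and 2.53% of those 385 and 237 windows against 3.61% of the windows of tested genes. The ETS motif GAGGAAGT, of the type bound by PU.1, was in 3.9% and 8.44% against 3.52%. These matches describe letters in the windows, and binding was not measured.

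The 6 libraries held between 12894548 and 15652508 reads assigned to genes, so that 0 reads allows up to 3, or 0.192 to 0.233 CPM (counts scaled to library size), for counting error only. Replicates of a population correlated on the log scale at r = 0.978 to 0.983 across genes, and IM2 with IM3 libraries at 0.951 to 0.965. Replicates differed by more than sampling noise, with chi-square per degree of freedom of 15.16 to 24.47 in IM2 and 12.53 to 16.03 in IM3. Libraries B of both populations stood apart in Trac, the constant segment of the T cell receptor alpha chain. It had 15367 reads in IM2 B and 8862 in IM3 B but at most 1 in the other 4 libraries. For Trbc2, a constant segment of the beta chain, the log2 difference (IM2 minus IM3) ran from -4.01 to 7.13 over the fits described below. Cd3e had at most 1 read in any of the 6, and Cd8a and Ncr1 had 0. IM2 A held more haemoglobin RNA than the others, with 546 reads of Hbb-bs against 4 to 95. Without IM2 B, 793 genes were higher in IM2 and 565 in IM3, without IM3 B 669 and 482, and without IM2 A 681 and 467.

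Of 14095 genes tested in edgeR's quasi-likelihood test, 1611 (11.4%) differed at a Benjamini-Hochberg adjusted p under 0.05, which is what is meant by called below. Among them 915 (6.49% of those tested) were higher in IM2 and 696 (4.94%) in IM3. Counts of called list members below are to be set against these shares. Without a requirement on p, all 3 IM2 libraries lay above all 3 IM3 libraries in 15.7% of tested genes, and the opposite held in 14.8%. The differences towards IM2 were larger: the median log2 difference was 1.24 for genes higher in IM2 and -0.93 for those higher in IM3, while the median over all genes was 0.003. At least 8-fold differences were found for 112 genes in favour of IM2 and 13 in favour of IM3. Of those with 10 CPM or more in the higher population there were 42 and 3. With replicate letters as a block and the 6 libraries alone, 1461 genes were higher in IM2 and 1204 in IM3.

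**Figure D1:**
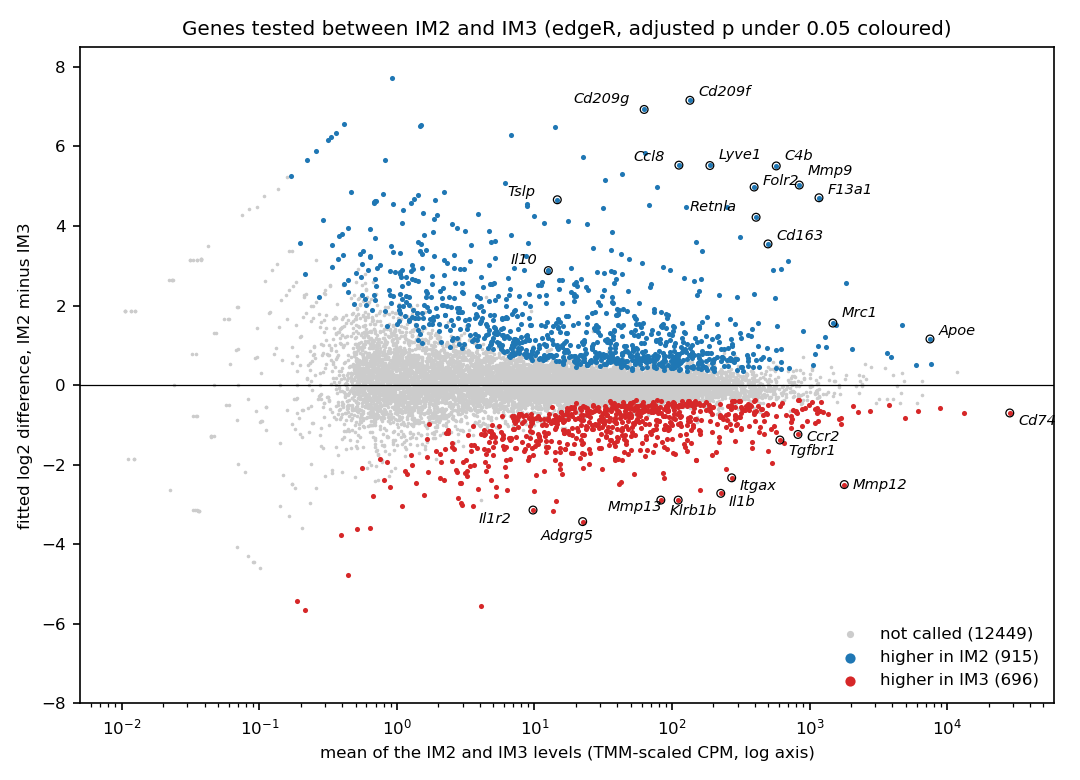
Log2 difference between IM2 and IM3 (y axis) against the mean level of the gene in CPM (x axis, log scale), 1 point per tested gene, with the 915 genes called higher in IM2 and the 696 called higher in IM3 coloured. The largest differences point towards IM2, with Cd209f at 7.16, while the points towards IM3 reach lower values at comparable levels.

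The gated genes themselves give no independent evidence, since the sort chose the cells by their proteins. Mrc1 (chr2:14229392-14332057, plus strand) stood at 2015, 2195 and 2402 CPM in IM2 replicates A, B and C and at 699, 769 and 770 in IM3, a log2 difference of 1.56 ± 0.13 (SE, adjusted p = 1.08e-06). Levels here and below are CPM scaled by edgeR's TMM factors. Transcripts of the CD206 gene were thus 2.95-fold higher on the CD206+ side, and the 3 libraries of each side did not overlap, though IM3 kept at least 699 CPM. Itgax was at 71.5, 113 and 86.1 CPM in IM2 and at 418, 428 and 510 in IM3, which is -2.33 ± 0.25 on the log2 scale (adjusted p = 9.27e-06). Its difference was therefore larger than that of Mrc1 and pointed the other way, as the CD11c marks in the labels do. Genes of the shared gates, Itgam (CD11b), Fcgr1 (CD64) and Mertk, were not called, with log2 differences of 0.10 ± 0.17, 0.16 ± 0.16 and 0.01 ± 0.14. Ly6g had no read in any of the 6 libraries. Spn (CD43), Siglecf and Klrb1c (NK1.1), which encode proteins the gate left out, were low in both populations and higher in IM3. The highest library of the 3 genes reached 27.7, 3.51 and 7.63 CPM, all of it in IM3. Klrb1c was not called without IM2 A (adjusted p at most 0.0627 over all alternatives), nor without IM3 B or C, and Siglecf was not when the AM libraries were left out (adjusted p = 0.0991). Over the list of gate genes 12 of 14 were tested, 1 was higher in IM2 and 7 in IM3, and the latter number was 3 without IM2 A, 4 without IM2 B and 3 without IM3 B.

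Macrophage genes known from CD206-high perivascular cells were higher in IM2 almost without exception. Of 28 members, all tested, 27 were higher in IM2 and 0 in IM3, the median log2 difference was 3.57 and the range was 0.44 to 7.16. All 3 IM2 libraries lay above all 3 IM3 libraries for each of the 28, against 15.7% of all tested genes. The mean of the list on the log2(CPM + 0.5) scale was 8.40, 7.88 and 8.21 in IM2, 4.76, 4.96 and 4.90 in IM3, and 8.96, 8.25 and 8.49 in IM1, so IM2 stood near IM1. Since these are bulk samples, fewer cells of a kind and less RNA per cell cannot be told apart. Mrc1 belongs to the list as well as to the gate, and the members were chosen with earlier results of these data known. The count of 27 is therefore a description and no independent evidence. Among the uptake receptors, Lyve1, which binds hyaluronan, was at 477, 318 and 311 CPM in IM2 and at 6.95, 10.3 and 6.77 in IM3 (5.52 ± 0.33, adjusted p = 4.15e-08). Folr2, a folate receptor, had 1093, 550 and 653 CPM against 19.9, 24.9 and 27.9 (4.98 ± 0.39). Cd163, the receptor for haemoglobin bound to haptoglobin, had 922, 970 and 862 against 85.4, 78.5 and 70.8 (3.55 ± 0.13). The IM2 values of these 3 genes were more than 10 times any IM3 value.

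Timd4, a receptor for phosphatidylserine on dying cells, differed by 4.45 ± 0.26, and Gas6, the bridging ligand for MerTK and Axl, by 3.11 ± 0.22. Stab1, a scavenger receptor of modified lipoproteins, showed a smaller difference (1.52 ± 0.22) and kept 711 to 864 CPM in IM3. F13a1, the A chain of coagulation factor XIII, was among the most abundant, with 2263, 1907 and 2585 CPM in IM2 and 76.2, 85.3 and 96.2 in IM3 (4.71 ± 0.20, adjusted p = 1.43e-09). Ednrb, the endothelin receptor B, went from 107 to 133 CPM in IM2 to 1.39 to 3.30 in IM3, while Selenop, a selenium transport protein, was 2.83-fold higher in IM2 and still reached 2413 to 2442 CPM in IM3. Some members were thus close to absent in IM3 and others only lower. The member not called, Mgl2 (a galactose-binding lectin), stood at 1374, 969 and 1253 CPM in IM2 and at 902, 794 and 954 in IM3 (0.44 ± 0.22, adjusted p = 0.264), and with the replicate block in the 6 libraries alone its adjusted p was 0.00201. Igf1, a growth factor, was called at 0.45 ± 0.13 but not without IM2 B or C or IM3 A or B (adjusted p up to 0.145).

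**Figure D2:**
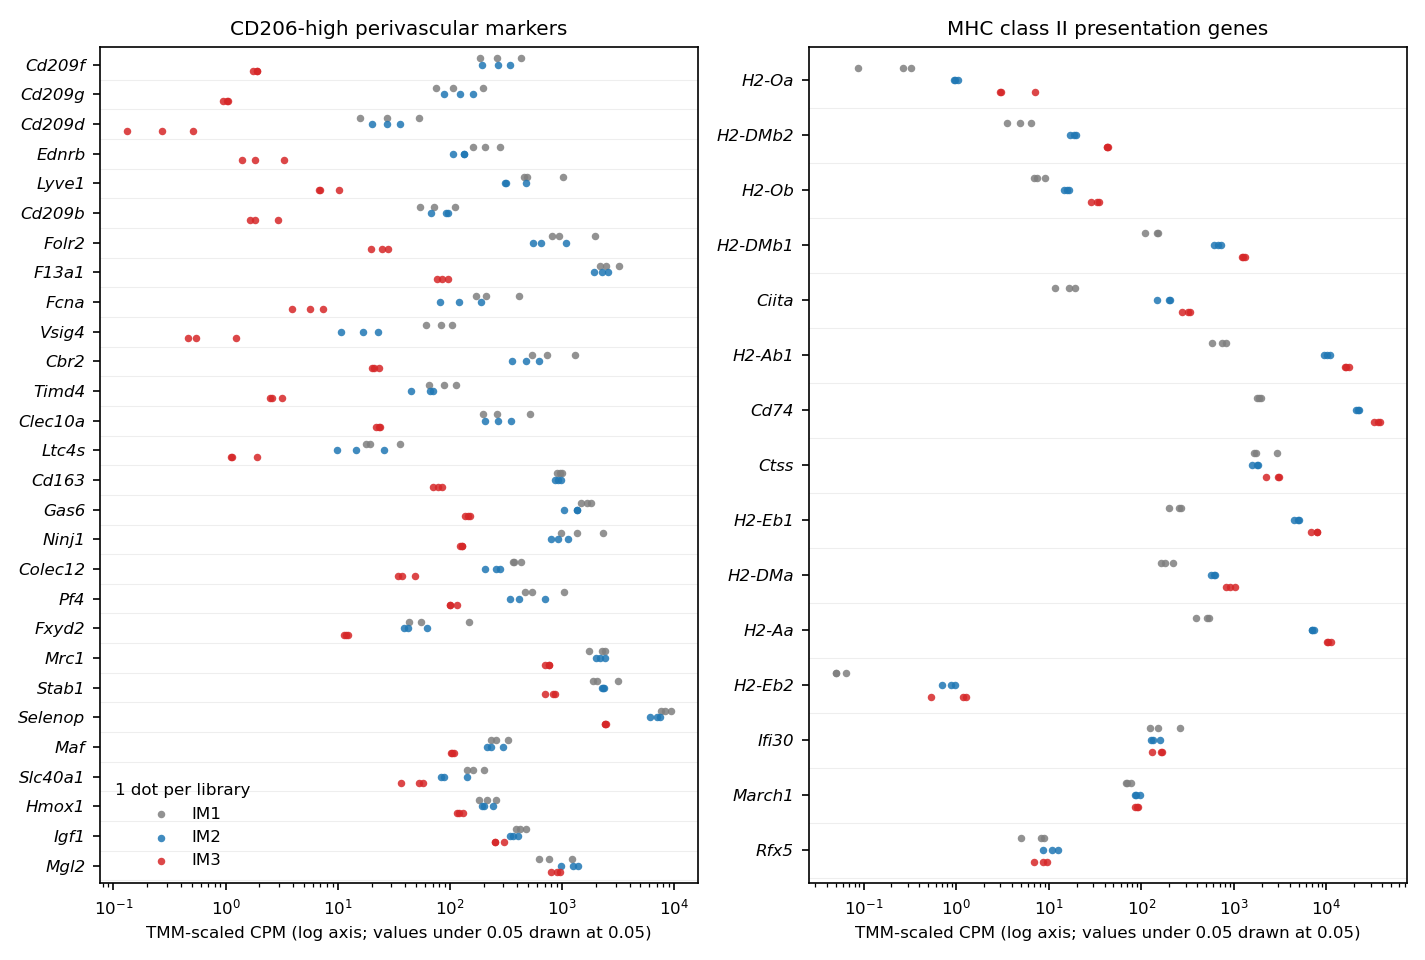
CPM on a log axis for the 28 perivascular genes (left) and the 15 genes of MHC class II presentation (right), 1 dot per library, in IM1, IM2 and IM3. On the left IM2 dots lie with those of IM1 and right of IM3 in every line, and on the right all IM3 dots lie above all IM2 dots for 11 of 15 genes, with both far above IM1 for H2-Aa, H2-Ab1 and H2-Eb1.

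The CD209 family, C-type lectins related to human DC-SIGN that bind glycans of microbes and of self, was far higher in IM2. Cd209f (chr8:4102787-4105835), whose start is printed above, had 343, 192 and 268 CPM in IM2 and 1.92, 1.91 and 1.76 in IM3, a 143-fold difference (7.16 ± 0.36, adjusted p = 4.12e-08). Cd209g had 162, 88.8 and 122 CPM against 1.06, 1.03 and 0.947 (6.93 ± 0.42). Cd209d, Cd209b, Cd209c, Cd209e and Cd209a were higher in IM2 by 6.5, 5.32, 4.30, 3.77 and 3.84 on the log2 scale. The family members lie close together and resemble each other, so reads can be split or lost between them, since only reads mapping to 1 place were counted. In the whole list of C-type lectins 10 of 29 tested members were higher in IM2 and 4 in IM3. Klrb1b, an inhibitory receptor of the NKR-P1 family, was the strongest of those higher in IM3, with 131, 161 and 146 CPM there and 13.1, 27.2 and 18.8 in IM2 (-2.89 ± 0.21, adjusted p = 2.9e-07). Clec4n (Dectin-2), which binds fungal mannans, was higher in IM3 by 0.89 in size (-0.89 ± 0.17), and Clec4a3 was not called (-0.10 ± 0.17, adjusted p = 0.828). With the block in the 6 libraries alone 7 lectins were higher in IM3.

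MHC class II genes were modestly higher in IM3. Of 15 members tested, 11 were higher in IM3 and 0 in IM2, with a median of -0.68. H2-Ab1, a beta chain, had 9406, 10060 and 10850 CPM in IM2 and 15930, 17380 and 16070 in IM3 (-0.70 ± 0.18, adjusted p = 0.0142). H2-Aa had 7031, 6922 and 7373 against 10460, 11070 and 10050 (-0.57 ± 0.18, adjusted p = 0.0481). Both genes were more than 10 times the IM1 means of 714 and 478 CPM in all 6 libraries, and both encode the molecule of the gate. Among genes whose proteins were not gated, H2-DMb1 and H2-DMb2, chains of the peptide loading factor, were higher in IM3 by 1.88-fold and 2.33-fold. H2-Oa and H2-Ob, which restrain that factor, were higher by 4.4-fold and 2.04-fold. Cd74, the invariant chain, was at 20770 to 22580 CPM in IM2 and 32300 to 37660 in IM3 (-0.70 ± 0.14). Ciita, the master regulator of the class II genes, differed by -0.76 ± 0.19, but was not called without IM2 A, IM3 B or IM3 C (adjusted p up to 0.0846). Ifi30 and March1, a thiol reductase and a ubiquitin ligase of the class II route, were not called. Without IM2 A, IM2 B or IM3 B the members higher in IM3 numbered 6, 7 and 6. H2-Aa lost its call when any 1 of the 6 libraries was left out (adjusted p up to 0.155), H2-Ab1 without IM2 A, IM2 B or IM3 B, and H2-Eb1 without those or IM3 A. Markers of dendritic cells, which also carry class II, summed to 1050 to 1222 CPM (here and for all such sums, of assigned reads without TMM factors) in IM2 and 1476 to 1617 in IM3. Of their 23 matched genes 21 were tested, with 5 higher in each population, and their part in the class II difference was not tested. Cadm1, Irf8 and Naaa gave most of each sum, and each was higher in IM3. Cadm1 was at 61.58 to 115.0 CPM in IM2 and 378.2 to 442.4 in IM3. The other members together were higher in IM2. The defining markers Xcr1 and Clec9a were at most 2.85 CPM in any of the 6 libraries, and Flt3 was at 3.45 to 9.90 CPM in IM2 and 7.99 to 24.8 in IM3. Zbtb46, a dendritic cell transcription factor, was higher in IM2 (1.82 ± 0.21).

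Ligands that costimulate or restrain T cells did not move one way. Of 17 tested, 3 were higher in IM2 and 3 in IM3, set against 6.49% and 4.94% of all genes. Vsig4, an inhibitory complement receptor of the B7 family, was higher in IM2 by 4.49 ± 0.39, and Cd40, which receives help from T cells, by 1.14 ± 0.16. Havcr2 (TIM-3) was higher in IM3, at 219, 230 and 215 CPM against 84.5, 115 and 102 in IM2 (-1.14 ± 0.14, adjusted p = 3.81e-05), and so was Icosl, the ligand of ICOS (-0.86 ± 0.18). Cd48 and Cd83 were not called.

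Of the CC chemokines 6 of 14 tested were higher in IM2 and 3 in IM3, with a median of 1.19. The 6 were Ccl8, Ccl24, Ccl7, Ccl12, Ccl6 and Ccl2, most of which attract monocytes, and Ccl24 eosinophils. Ccl8 had 312, 141 and 205 CPM in IM2 and 3.97, 3.52 and 6.70 in IM3 (5.53 ± 0.42, adjusted p = 1.25e-06). For Ccl24 the values were 215, 102 and 132 against 6.29, 4.03 and 3.79 (4.99 ± 0.36). Ccl7 and Ccl2 differed by 2.70 ± 0.30 and 1.53 ± 0.25. The 3 in the other direction, Ccl3, Ccl4 and Ccl5, attract monocytes and T cells. Ccl4 was at 51.5, 43.2 and 29.8 CPM in IM3 and at 19.1, 17 and 11.5 in IM2 (-1.39 ± 0.28, adjusted p = 0.0031), and Ccl5 was low in both (at most 7.70 CPM). Without IM3 B only 1 of the 3 remained, since neither Ccl5 nor Ccl3 was called, and Ccl3 was not called without IM2 B, IM2 C or IM3 A either. Ccl9 was not called (0.70 ± 0.23, adjusted p = 0.0642), though with the replicate block over all libraries its adjusted p was 0.0265. Of the CXC chemokines 3 of 11 tested were higher in each population. Cxcl12, the ligand of CXCR4, had 55.2, 39.2 and 58.2 CPM in IM2 and 9.93, 7.77 and 14.6 in IM3 (2.24 ± 0.23). Cxcl13, which draws B cells, was higher in IM2 by 1.44 ± 0.21, as was Pf4, a platelet chemokine also made by macrophages (2.21 ± 0.30). Cxcl14, Cxcl2 and Cxcl16 were higher in IM3 by -1.58, -1.09 and -0.85 on the IM2 minus IM3 scale, Cxcl16 not without IM2 A, IM2 C or IM3 B. Cxcl1, like Cxcl2 a neutrophil attractant, was not called (-0.86 ± 0.36, adjusted p = 0.166), but was with the block over all libraries (adjusted p = 0.00877), and also without IM2 A or without the filter on low counts.

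Receptors showed the reverse of some ligands. Ccr2, the receptor of Ccl2, Ccl7 and Ccl12 on monocytes and cells derived from them, was at 1050, 1154 and 1261 CPM in IM3 and at 329, 584 and 554 in IM2 (-1.24 ± 0.24, adjusted p = 0.002). IM1 averaged 71.0 CPM. Cxcr4 was higher in IM3 (-0.99 ± 0.19) and so was Ccrl2, a non-signalling receptor of chemerin (-1.12 ± 0.25, adjusted p = 0.00689), the latter not without IM3 A or when only the 6 libraries were fitted without the block (adjusted p up to 0.125). Ccr1, which binds Ccl3 and Ccl5 among others, was higher in IM2 (1.32 ± 0.18). Cx3cr1, the fractalkine receptor, was at 450, 637 and 717 CPM in IM2 and at 700, 661 and 860 in IM3, which overlapped (-0.30 ± 0.25, adjusted p = 0.575).

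**Figure D3:**
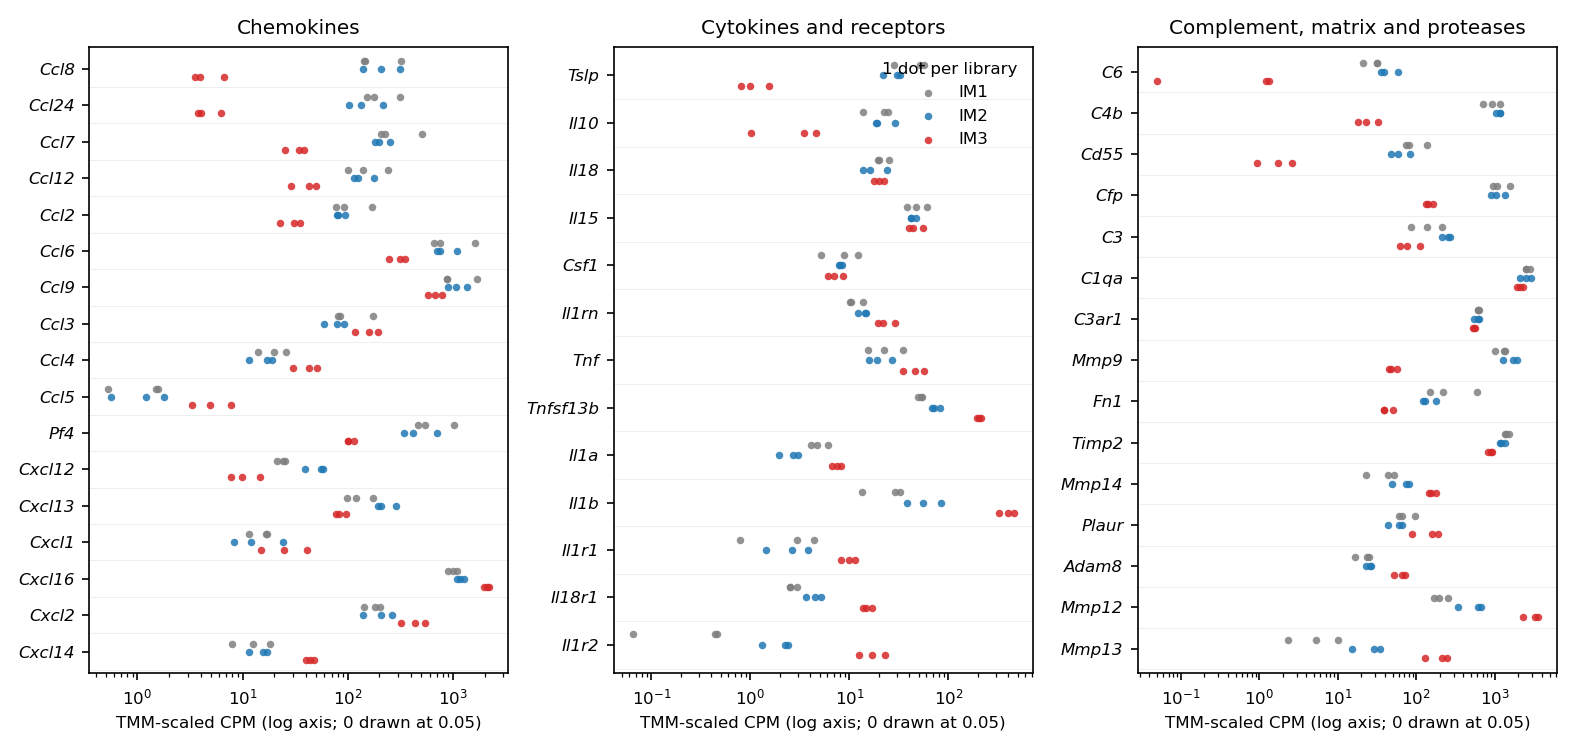
CPM on a log axis for chemokines (left), cytokines with their receptors (middle), and complement, matrix and protease genes (right), 1 dot per library in IM1, IM2 and IM3. Ccl8, Tslp, C6 and Mmp9 lie 1 to 2 powers of 10 higher in IM2, and Il1b, Il1r2, Mmp12 and Mmp13 lie higher in IM3.

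Among cytokines, 3 of 20 tested were higher in IM2 and 5 in IM3, set against 6.49% and 4.94% of all genes. Il1b, the inflammatory interleukin-1 beta, had 398, 456 and 323 CPM in IM3 and 38.2, 84.1 and 55.7 in IM2 (-2.72 ± 0.30, adjusted p = 1.36e-05). All 3 IM3 libraries were thus several-fold above all IM2 libraries. Il1a, Tnf, Tnfsf13b (the B cell factor BAFF) and Il1rn (the natural antagonist of IL-1) were also higher in IM3, by -1.55, -1.16, -1.46 and -0.76 as IM2 minus IM3. Tnf lost its call without IM2 B or C or IM3 A or B (adjusted p up to 0.098). Il10, an anti-inflammatory cytokine, was low but higher in IM2, at 29, 18.9 and 18.7 CPM against 3.44, 4.62 and 1.01 (2.88 ± 0.40, adjusted p = 0.000236). Tslp, an epithelial-type alarmin, had 30.3, 22 and 32.2 CPM against 0.993, 1.54 and 0.812 (4.66 ± 0.34). Lif rested on 16 reads in IM2 and 1 in IM3, a ratio of 16.4 with an exact 95% interval from 2.54 to 686, and lost its call when any 1 of the 6 libraries was left out. Il12b had 0 reads in IM2 and 14 in IM3, with 0, 11 and 3 in IM3 A, B and C. IM3 A was thus no different from the IM2 libraries. Pooled, the gene was at least 4.56-fold higher in IM3 when set against 3 reads over the IM2 group, and was not tested.

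Receptors of the IL-1 family were higher in IM3 throughout those called. Il1r2, the decoy receptor that binds IL-1 without signalling, had 17, 23.1 and 12.4 CPM in IM3 and 2.26, 2.38 and 1.32 in IM2 (-3.14 ± 0.37, adjusted p = 6.02e-05). Il1r1, Il18r1 and Il18rap differed by -1.88 ± 0.42, -1.76 ± 0.23 and -1.74 ± 0.39. Clcf1, a cytokine of the IL-6 family outside the list, was at 21.6, 17.6 and 12.1 CPM in IM3 and at 2.33, 3.23 and 2.52 in IM2 (-2.66 ± 0.27). In the whole list of cytokine receptors 6 of 32 were higher in IM2 and 8 in IM3. The 6 were 2 without IM3 B, and 3 without IM2 B, IM2 C or IM3 C. Csf1r, the receptor that keeps macrophages alive, was at 6391, 6790 and 7734 CPM in IM2 and at 4929, 4744 and 5085 in IM3 (0.50 ± 0.15, adjusted p = 0.0368), and lost its call when any 1 of the 6 libraries was left out.

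Of the complement genes 9 of 20 tested were higher in IM2 and 1, Itgax, in IM3, while 10 were not called, with a median of 0.54. C4b (chr17:34728380-34743882, minus strand), a component of the classical pathway, had 1172, 1025 and 1161 CPM in IM2 and 18.4, 22.8 and 32.7 in IM3 (5.51 ± 0.25, adjusted p = 2.49e-09). Its near copy C4a means that reads shared by both were not counted. C6, part of the membrane attack complex, had 38.9, 35.5 and 59.2 CPM against 0, 1.32 and 1.22 (5.73 ± 0.50). Among regulators of the cascade, Cd55, which breaks up convertases on the cell surface, differed by 5.16 ± 0.36, and Cfp (properdin), which steadies them, by 2.91 ± 0.20. C3, the central component, was at 215, 257 and 272 CPM in IM2 and at 62.2, 75.9 and 111 in IM3 (1.58 ± 0.27). In contrast C1qb and C1qc, the recognition subunits abundant in tissue macrophages, overlapped between the populations (0.09 ± 0.22 and 0.25 ± 0.20, adjusted p = 0.885 and 0.575).

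Matrix metalloproteinases split in opposite directions. Mmp9, a gelatinase, had 1907, 1290 and 1698 CPM in IM2 and 48.3, 45.4 and 56.4 in IM3 (5.03 ± 0.20, adjusted p = 4.44e-09). Mmp12, macrophage elastase, was the most abundant gene at least 2-fold higher in IM3, with 2267, 3279 and 3554 CPM there and 337, 608 and 666 in IM2 (-2.50 ± 0.24, adjusted p = 3.66e-06). Mmp13 (chr9:7272514-7283333), a collagenase, had 131, 210 and 245 CPM in IM3 against 15.3, 29.2 and 34.4 (-2.89 ± 0.36, adjusted p = 4.89e-05). None of the 3 genes overlapped between the populations. Mmp14, the membrane activator of other proteinases, Adam8 and Plaur, the urokinase receptor, were higher in IM3 by -1.24, -1.35 and -1.34 as IM2 minus IM3, Mmp14 not without IM2 A. Fn1, fibronectin, was higher in IM2 (1.75 ± 0.36). Over the list 4 of 28 tested were higher in IM2 and 7 in IM3, and 11 were higher in IM3 with the block in the 6 libraries alone. Mmp9 is also a neutrophil gene, and the neutrophil list summed to 1448 to 2047 CPM in IM2 and 111.3 to 121.0 in IM3. In IM2 most of that sum was Mmp9 itself, while Ly6g was at 0 and S100a8 had at most 2 reads in any of the 6 libraries. Fibroblast and mural markers, a source of matrix RNA, summed to 505.3 to 533.8 CPM in IM2 and 391.3 to 664.3 in IM3. Of 17 tested 1 was higher in each population, Dcn in IM2 (at most 9.26 CPM) and Mfap4 in IM3 (at most 60.0 CPM, not called without IM2 A, IM2 C, IM3 B or IM3 C). With the block in the 6 libraries alone 2 were higher in IM2 and 5 in IM3, and with the block over all libraries 1 and 2. Without IM2 B 2 were higher in IM3 and without IM3 A 3. The part of these markers in the matrix genes was not tested.

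Integrins and adhesion genes leaned to IM3, with 13 of 29 tested higher there and 1 in IM2 (2 in IM2 with the block in the 6 libraries alone or without IM2 C) and a median of -0.60. Besides Itgax, Itgal (the LFA-1 alpha chain) had 65.5, 53.7 and 60.9 CPM in IM3 and 14.4, 18.7 and 17.7 in IM2 (-1.82 ± 0.25). Itga8, Itgb7, Cd44 (a hyaluronan receptor) and the shared beta chain Itgb2 followed, with -1.60, -1.30, -1.04 and -0.53. Cadm1, an adhesion molecule, was at 376, 403 and 431 CPM in IM3 and at 59.8, 110 and 110 in IM2 (-2.11 ± 0.21). The 1 gene higher in IM2 was Vcam1, the ligand of integrin alpha 4, at 651, 527 and 473 CPM against 223, 206 and 194 (1.41 ± 0.23). Itgam, the alpha chain that pairs with Itgb2 in both sorted populations, did not differ beyond its spread.

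Of a list of genes linked to CD11c-positive, CX3CR1- or CCR2-associated macrophages, 11 of 22 were higher in IM3 and 4 in IM2, with a median of -0.66. Itgax, the gene of the CD11c gate, was among the 11 and gives no independent evidence. Cd9, a tetraspanin, had 873, 1017 and 969 CPM in IM3 and 309, 372 and 362 in IM2 (-1.45 ± 0.13, adjusted p = 1.38e-06). Cd72, an inhibitory coreceptor, and Tmem119, best known from microglia, were higher in IM3 by -1.66 ± 0.14 and -1.42 ± 0.16. Other genes known from microglia went the other way. Siglech had 326, 248 and 325 CPM in IM2 and 22.7, 26.7 and 37.5 in IM3 (3.37 ± 0.22), Fcrls differed by 2.18 ± 0.16 and P2ry12 by 1.06 ± 0.13, and Trem2 overlapped (-0.13 ± 0.16). Monocyte markers were mixed too. Ly6c2, which defines classical monocytes, was at most 2.26 CPM in any library. The classical list summed to 2974 to 3518 CPM in IM2 and 1343 to 1583 in IM3, most of the IM2 sum being F13a1, and 6 of 15 tested were higher in IM2 and 2 in IM3 (5 in IM3 with the block in the 6 libraries alone). The 2 were Ccr2 and Gm9733, of which Gm9733, with 3 reads in IM2 and 41 in IM3, lost its call without IM2 A, IM2 B, IM2 C, IM3 A or IM3 B, which left 1. Of the non-classical list, 2 of 17 tested were higher in IM2 and 6 in IM3, among them Treml4 (-2.55 ± 0.33, at most 11 CPM) and Gngt2 (-1.49 ± 0.20), and the 2 were 1 without IM2 A or IM3 C. That list summed to 2221 to 2449 CPM in IM2 and 1994 to 2123 in IM3. Cd36 gave 1334 to 1599 CPM of it in IM2 and 744.9 to 891.9 in IM3, and the other members together were higher in IM3. What monocytes or their progeny add to these differences was not tested.

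Iron and haem genes leaned to IM2, with 11 of 22 tested higher there and 0 in IM3 and a median of 0.74. Besides Cd163, Cp (ceruloplasmin, a ferroxidase) had 291, 239 and 313 CPM against 37.3, 45.5 and 50.4 (2.66 ± 0.19), and Tfrc, the transferrin receptor, 28.4, 38.6 and 36.6 against 4.37, 4.55 and 8.19 (2.60 ± 0.24). Both groups were clear of each other in each case. Slc40a1 (ferroportin, the iron exporter), Blvrb (biliverdin reductase B) and Hmox1 (haem oxygenase 1) were higher by 1.10 ± 0.23, 1.46 ± 0.22 and 0.80 ± 0.16. The ferritin chains were not called. Ftl1 was higher in all 3 IM2 libraries (0.54 ± 0.21, adjusted p = 0.119) and Fth1 in all 3 IM3 libraries (-0.44 ± 0.20, adjusted p = 0.214). With the block in the 6 libraries alone 15 members were higher in IM2 and 2 in IM3, the ferritins among them (adjusted p = 0.000679 and 0.00613). IM2 A was the library with the most haemoglobin RNA, and without it Cd163, Cp and Tfrc were still called.

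Lipid genes showed no single direction, with 6 of 29 tested higher in IM2 and 5 in IM3. Abca1, a cholesterol exporter, was at 514, 787 and 586 CPM in IM2 and at 242, 193 and 199 in IM3 (1.57 ± 0.24), while Abcg1, another exporter, was higher in IM3 (-1.0 ± 0.19). Pltp, which transfers phospholipids, was higher in IM2 (1.37 ± 0.14). Apoe was the most abundant gene at least 2-fold higher in IM2, at 13080, 7938 and 10070 CPM against 5719, 4078 and 4066 (1.16 ± 0.29, adjusted p = 0.0147), and was not called without IM2 A, IM3 B or IM3 C. Pparg, the lipid-sensing factor of alveolar macrophages, had 40.3, 47.7 and 49.1 CPM in IM3 and 11.3, 18.1 and 16.4 in IM2 (-1.58 ± 0.17), and Ch25h, which makes an oxysterol, differed by -1.64 ± 0.27. AM averaged 198 CPM of Pparg. The alveolar macrophage list summed to 1027 to 1047 CPM in IM2, 1769 to 2039 in IM3 and 62610 to 69970 in AM. Lpl and Cd9, also on the list of CD11c-positive, CX3CR1- or CCR2-associated macrophages, gave most of the IM2 and IM3 sums. Lpl was at 405.7 to 441.7 CPM in IM2 and 630.3 to 779.9 in IM3, and Cd9 at 318.7 to 388.5 and 877.7 to 1009. The other members together overlapped between IM2 and IM3. Of the 22 genes of the alveolar list 8 were higher in IM2 and 6 in IM3, the 8 being 4 without IM2 A or IM3 C. Ear2, Fabp1, Krt19 and Plet1 of the 8, and Siglecf of the 6, were not called when the AM libraries were left out. The filter on low counts took in the AM libraries, and Cidec rested on 27 reads in IM2 and 2 in IM3. Among these 8, Chil3 was at 113, 28.8 and 52.5 CPM in IM2 and at 12.1, 5.87 and 14.9 in IM3, against a mean of 51280 in AM. It was not called when only the 6 libraries were fitted without the block (adjusted p up to 0.0949). What alveolar macrophage RNA adds to either population was not tested.

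Retnla (resistin-like alpha), a marker of alternatively activated macrophages, had 1132, 557 and 634 CPM in IM2 and 44.5, 46.6 and 33.7 in IM3 (4.22 ± 0.37, adjusted p = 4.32e-06). Within its list of eicosanoid and arginine genes 6 of 22 tested were higher in IM2 and 1 in IM3 (2 in IM3 with either block, 0 without IM2 A). Ltc4s, which makes leukotriene C4, differed by 3.58 ± 0.39, whereas Hpgd and Ptgs1, which break down and start prostaglandins, were not called. Arg1 was at most 1.47 CPM and Nos2 at most 0.486 in any of the 6 libraries. Alox15, not tested, had 1 read in IM2 and 19 in IM3, a ratio of 18.6 with an exact 95% interval from 2.95 to 772.

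Among growth factors 7 of 26 tested were higher in IM2 and 2 in IM3, set against 6.49% and 4.94% of all genes. Bmp2 had 30.0, 27.3 and 41.5 CPM in IM2 and 6.29, 5.79 and 8.80 in IM3 (2.24 ± 0.23), and Tgfa, an EGF receptor ligand, differed by 2.54 ± 0.32. Nrp1 and Nrp2, coreceptors of VEGF and semaphorins, were higher in IM2 by 1.24 ± 0.12 and 1.32 ± 0.16. Fgf13 and Pgf, a VEGF relative, were higher in IM3 (-2.15 ± 0.37 and -2.56 ± 0.46), Pgf at no more than 2.03 CPM. Pdgfb was not called (-0.90 ± 0.30, adjusted p = 0.0667), but had an adjusted p of 0.025 with the block over all libraries. Of the TGF-beta list 1 of 26 tested was higher in IM2 and 3 in IM3, against the same 6.49% and 4.94%. The 1 was 0 without IM3 A. Among the 3 were the type I receptors Tgfbr1 (843, 782 and 1011 CPM against 273, 420 and 317) and Acvrl1 (-1.14 ± 0.14). With the block in the 6 libraries alone the numbers were 2 and 6, and for growth factors 7 and 5.

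Of the pattern recognition genes 5 of 25 were higher in IM2 and 1 in IM3, and 8 and 3 with the block in the 6 libraries alone. Tlr5, the flagellin receptor, had 67.8, 58.9 and 54.4 CPM in IM2 and 17.3, 11 and 14.8 in IM3 (2.07 ± 0.18), and Tlr12, which senses profilin, was higher in IM3 (-1.89 ± 0.34). Cd14 and Tlr2 overlapped. Without IM2 A or IM3 C the 5 were 3. Of 37 interferon response genes 5 were higher in IM2 and 3 in IM3, set against 6.49% and 4.94% of all genes, and 10 and 4 with that block. Without IM3 B or IM3 C the 5 were 3. Siglec1, a sialic acid receptor induced by interferon in other settings, was higher in IM2 at 287, 268 and 227 CPM against 56.5, 44.7 and 51.4 (2.36 ± 0.16).

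Of 58 transcription factors 11 were higher in IM2 and 8 in IM3. Maf, a factor of tissue macrophages, was higher in IM2, at 298, 212 and 234 CPM against 103, 110 and 104 (1.24 ± 0.17, adjusted p = 9.8e-05). Etv1, Cebpd and Tcf4 were higher in IM2 by 1.68, 1.5 and 0.65, and Runx3, Irf5 and Klf6 higher in IM3 by -1.30, -0.64 and -0.61 as IM2 minus IM3. Without IM3 A the 8 factors higher in IM3 numbered 5.

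Genes known to respond to tissue digestion were followed because the cells were sorted from digested lung. Of 29 tested members 0 were higher in IM2 and 5 in IM3, which were Dusp2, Hspa1b, Hspa1a, Atf3 and Klf6, and the number was 11 with the block in the 6 libraries alone. Atf3 was not called without IM3 A (adjusted p = 0.0514). Dusp2, a phosphatase acting on MAP kinases, had 115, 57.8 and 35.5 CPM in IM3 and 17.7, 12.6 and 7 in IM2 (-2.49 ± 0.36), and was not called when only the 6 libraries were fitted without the block (adjusted p up to 0.0748). Replicate A was highest and C lowest in both populations. Hspa1a and Hspa1b, heat shock proteins with near-identical sequences, were each about 2-fold higher in IM3 (2.15-fold and 2.36-fold). Fos was at 2569 to 3132 CPM in IM2 and 3018 to 4102 in IM3 (-0.34 ± 0.16, adjusted p = 0.245, and 0.03 with the block in the 6 libraries alone). Ccl3, Ccl4, Cxcl2, Tnf and Il1b, described above as higher in IM3, are also known as quickly induced genes. The part of sample handling in them was not tested.

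Cell cycle genes were low, with 7 of 37 higher in IM2 and 1 in IM3. Top2a was at 12.1, 11 and 8.14 CPM in IM2 and at 5.23, 4.33 and 5.48 in IM3 (1.05 ± 0.20), and Ccnd2, a G1 cyclin, was the gene higher in IM3 (-1.22 ± 0.15). AM averaged 25.8 CPM of Nusap1, whose IM2 libraries held 1.81 to 2.27. With the block in the 6 libraries alone the numbers were 12 and 2.

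**Figure D4:**
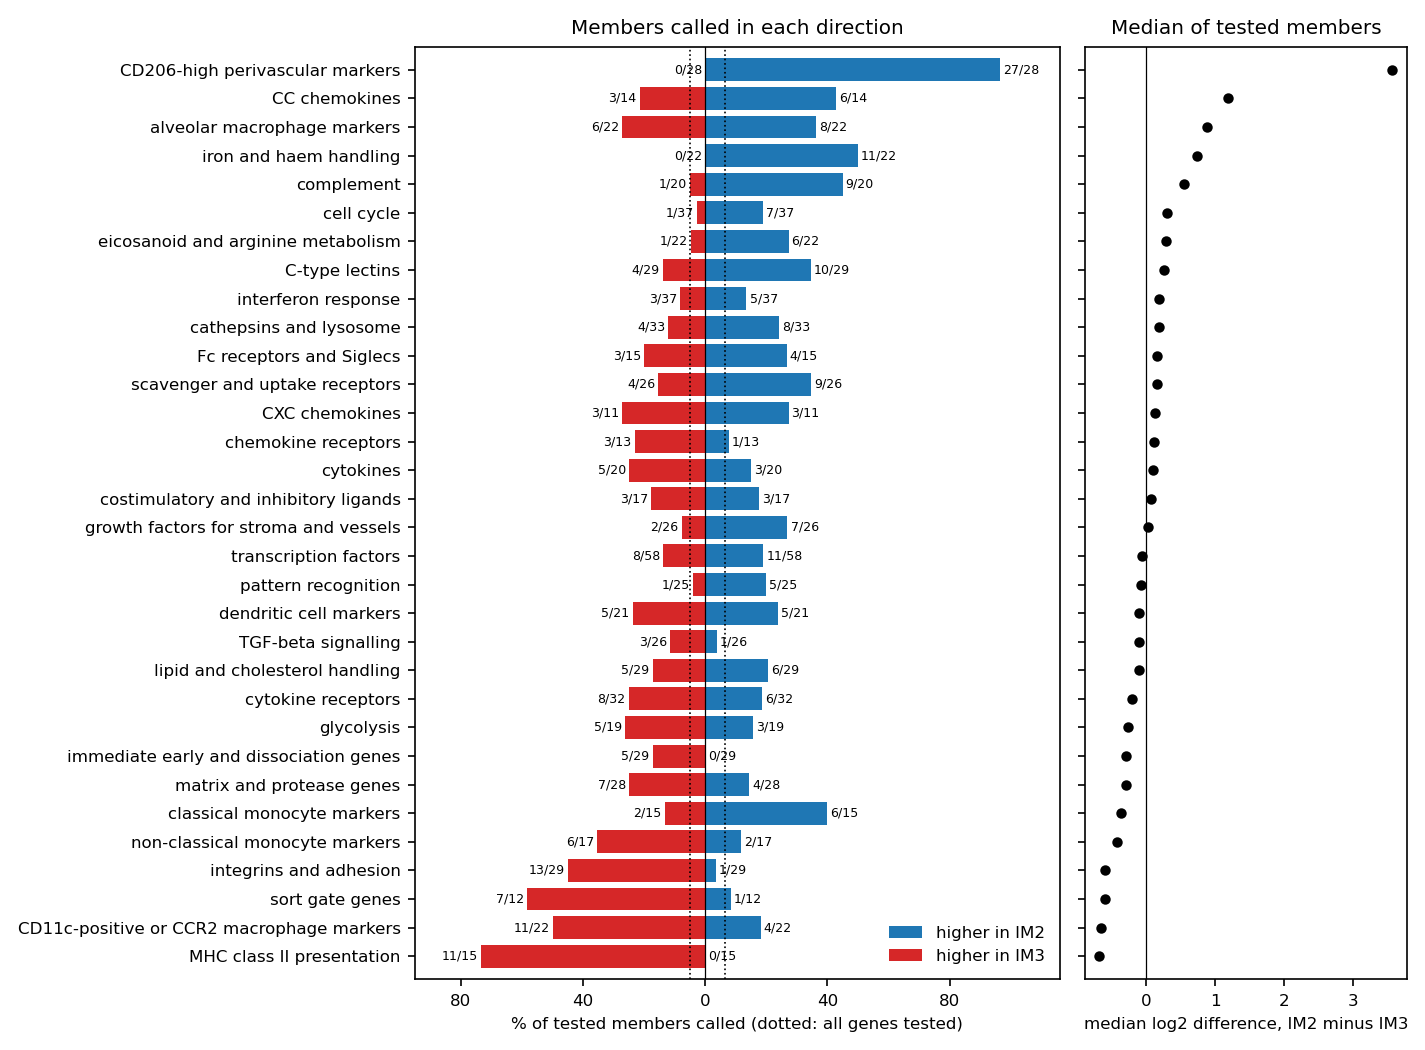
Share of the tested members of each list called higher in IM2 (right bars) or in IM3 (left bars), with counts beside them, and the median log2 difference of the tested members (right panel). Dotted lines mark 6.49% and 4.94%, the shares over all genes. The perivascular list stands at 27 of 28, the class II list at 11 of 15 towards IM3.

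Several of the largest differences towards IM3 were of genes outside the lists. Adgrg5 and Adgrl3, adhesion G protein-coupled receptors, had 43.1, 33.7 and 46.2 CPM and 23.8, 25.6 and 24.2 CPM in IM3. In IM2 they were at 3.84, 4.28 and 3.28 and at 2.79, 3.72 and 1.70, differences of -3.43 ± 0.28 and -3.17 ± 0.28. With Il1r2 they were the 3 genes at least 8-fold higher in IM3 at 10 CPM or more. H2-M2, a non-classical MHC class I gene, was at 222, 280 and 327 CPM in IM3 and at 30.5, 44.3 and 58.0 in IM2 (-2.64 ± 0.30). Spint1 and Prss30, a protease inhibitor and a serine protease, Lrrc3 and Tspan15 had differences from -2.91 to -2.32. By level, Rgs1, which dampens chemokine receptor signals, Lsp1 and Coro1a, both actin-binding proteins of leukocytes, were at least 2-fold higher in IM3, with Rgs1 at 748, 951 and 845 CPM against 176, 253 and 226 (-1.96 ± 0.17). Towards IM2, Slc7a13 and Slc16a12, transporters of amino acids and of creatine, were at most 16.5 and 14.8 CPM and nearly absent from IM3. Ly6e, a small surface protein, was at 3985, 2488 and 2971 CPM against 535, 558 and 510 (2.56 ± 0.21).

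**Figure D5:**
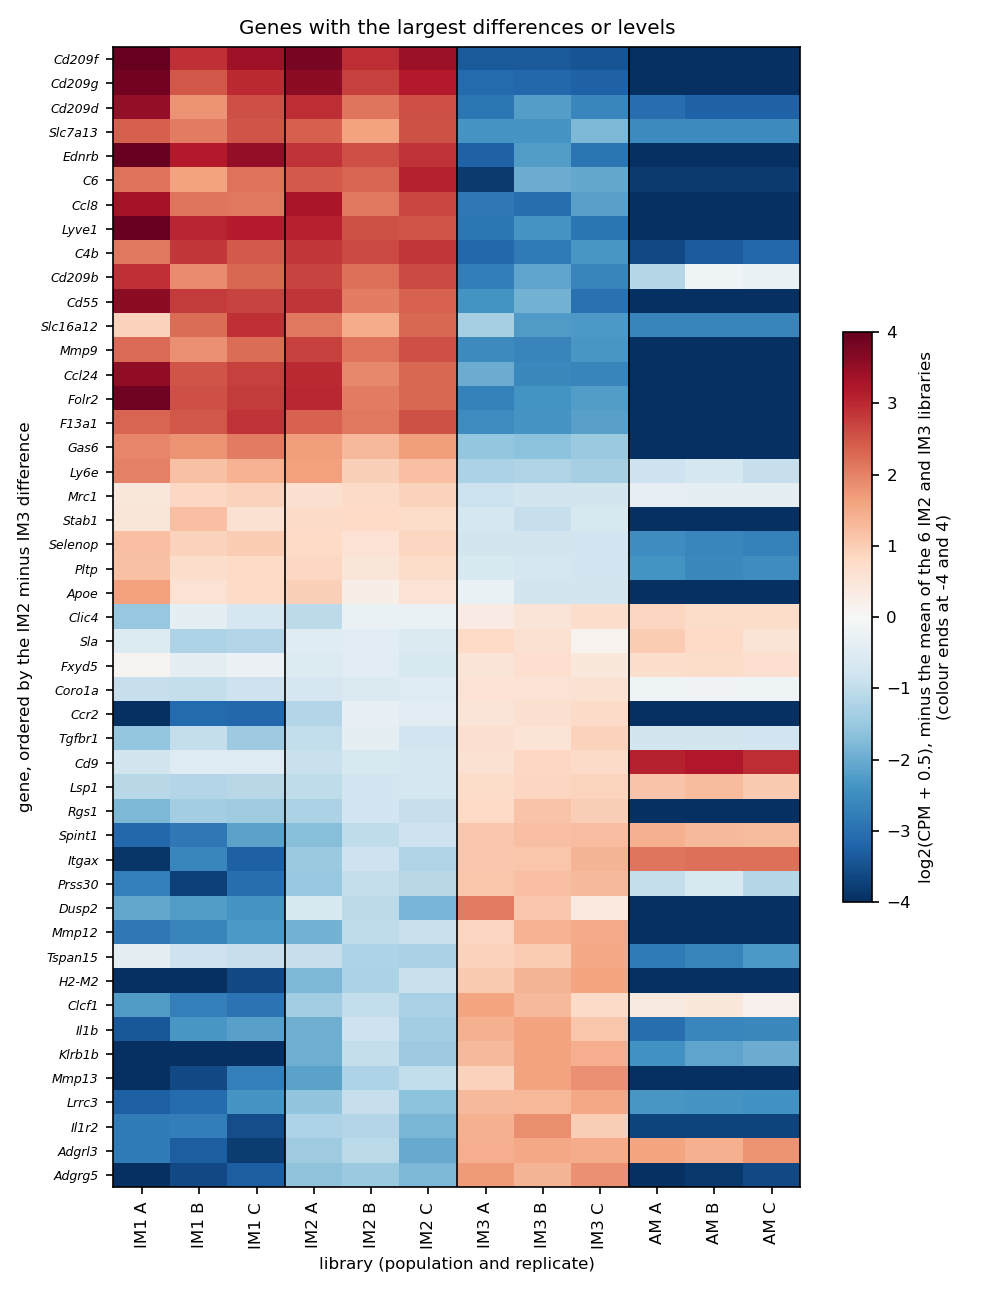
Levels of the genes with the largest differences or highest levels as log2(CPM + 0.5) minus the mean of the 6 IM2 and IM3 libraries, in all 12 libraries, ordered from higher in IM2 (top) to higher in IM3 (bottom). IM1 columns resemble those of IM2, and AM columns match neither population throughout.

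The place of IM1, the other CD206-high population, was noted for each called gene. Of the 915 genes higher in IM2 the IM1 mean was nearer to IM2 than to IM3 on the log2 scale in 874, above both in 567, between in 341 and below both in 7. Of the 696 higher in IM3, IM1 was nearer to IM2 in 658, below both in 496, between in 195 and above both in 5. Il1r2, Adgrg5 and H2-M2 averaged 0.322, 0.509 and 5.41 CPM in IM1, under both IM2 and IM3. No test was made of these positions, since the choice of genes already used the IM2 libraries.

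Markers of other cells differed in places. Endothelial markers summed to 873.6 to 1030 CPM in IM2 and 430.4 to 470.1 in IM3, with Lyve1 and Ehd4 higher in IM2 and Pecam1 in IM3 of 16 tested. Most of the difference between the sums was Lyve1, which is also on the perivascular list. It gave 315.0 to 491.4 CPM in IM2 and 6.948 to 10.26 in IM3. The other endothelial markers together were still higher in IM2. Ehd4 lost its call without IM2 C or any IM3 library, and Pecam1 without IM2 C. Cdh5 and Kdr, which define endothelium, were at most 6.20 and 6.77 CPM in any of the 6 libraries. Platelet and erythroid markers summed to 366.0 to 815.1 and 111.8 to 130.8 CPM, of which Pf4 gave the most. Epithelial markers summed to 29.03 to 77.01 and 17.79 to 31.76 CPM with IM2 A highest, and 1 of 10 tested, Scgb1a1, was higher in IM2 (3 with the block over all libraries, 4 with the block in the 6 libraries alone, and 2 without IM2 B). B cell markers summed to 75.58 to 79.49 and 48.42 to 52.46 CPM, with Ighd the 1 of 6 called, and Pax5 at 0. With the block in the 6 libraries alone 3 of the 6 were higher in IM2, Cd79b and Cd22 among them (adjusted p = 0.00269 and 0.0264). Of T and NK markers Cd4, known on macrophages too, was at 159, 158 and 216 CPM in IM2 against 49.9, 63.1 and 66.2, and Il7r was higher in IM3 (-1.83 ± 0.22). Mast cell markers stayed at 6.52 CPM or less in sum. The part of these other cells in the results above was not tested.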

How the data were processed

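Members and gene lists were chosen with earlier results of these data known. The authors deposited raw read counts per gene and sequencing run, made per the file headers with featureCounts v1.5.0-p1, unstranded, on Ensembl 78 gene models. Reads at several places or genes were left out there. The submitters' processing notes name STAR 2.5.1b, Subread 1.5.0-p1, R 3.2.0, DESeq2 1.8.1 and the mm10 build. Without strand, overlapping genes and near copies can share or lose reads. A deposited column of gene lengths was not used in any value.

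Runs were summed to libraries, 5 runs for IM2 A and 3 for each other library, and the authors' table of counts per library held the same values. Of 43346 gene identifiers 42462 (98.0%) had a symbol, and of 806 list symbols 802 matched (not Hhla2, Clec6a, Mb21d1 and Gbp5). The test was edgeR 4.0.16 in R 4.3.3 on raw counts: TMM scaling, filterByExpr by population (minimum count 10, 14095 genes), robust quasi-likelihood F test, all 12 libraries, population as the only term, Benjamini-Hochberg over all genes, called under 0.05. The fit was tested on simulated data. Fold differences are log2, IM2 minus IM3, with their SE. The SE was derived from the test, as the absolute log2 difference divided by the square root of the F statistic.

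Genes named were the gate genes, in each direction the 15 largest differences at 10 CPM or more with non-overlapping libraries, the 10 most abundant at least 2-fold, and from each list the 4 largest called and the 2 most abundant not called, without predicted genes and receptor segments. Other list members in the text, with Il12b, Alox15, Arg1, Nos2 and markers of other cells, were chosen after their values were seen. Some genes that this rule covers are not reported here. No list was given a test. Replicate letters were checked for pairing between IM2 and IM3 only. Over 8541 genes, deviations from the population mean correlated at 0.44, 0.40 and 0.422 for the same letter and at -0.344 to -0.104 for different letters. The letters therefore pair the IM2 and IM3 libraries by the data, though no label says so. Pairing was not checked for IM1 and AM, so the block over all libraries assumes it there. Alternatives were scaling, filter, libraries fitted, replicate block, IM2 A from its first 3 runs, each library left out, and DESeq2 1.42.0. Exact 95% intervals cover counting error only, since amplified reads carry no molecular identifiers.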

Additional observations from a re-analysis of the deposited data

How the results depend on the processing

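Over 17 alternatives no gene called between IM2 and IM3 changed the sign of its difference where it was tested. The replicate block, which uses the pairing of letters, gave 1814 calls over all libraries (1001 higher in IM2, 813 in IM3), with the pairing of IM1 and AM assumed. With the IM2 and IM3 libraries alone it gave 2665 (1461 and 1204). That last fit was the 1 alternative that moved the number of calls by more than 1.5 times. List counts it moved by more than 1.5 times are given beside the lists described. Leaving out 1 library of IM2 or IM3 gave 1148 to 1358 calls, 669 to 793 higher in IM2 and 467 to 565 in IM3. Between 70.0% and 80% of the 1611 calls were kept in the same direction. Without IM1 A there were 2254 calls, and DESeq2 made 1910, including 1599 of the 1611. RLE and upper-quartile scaling kept 1602 and 1581. Of 278 called genes named or on a list, 204 were called under every alternative and 74 lost the call under at least 1. Of 78 named genes that were not called, 29 were called under at least 1. Calls lost most often were those under 2-fold, such as H2-Aa and Csf1r, or with few reads, such as Lif. Of 1394 list counts under alternatives 155 moved by more than 1.5 times. At this depth a gene under about 0.2 CPM in a library cannot be told from 0.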

Other observations

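Glycolysis genes were not a clear mark of either population. Of 19 tested, 3 were higher in IM2 and 5 in IM3, with a median of -0.26. Hk3, a hexokinase of myeloid cells, was at 101, 87.5 and 110 CPM in IM2 and at 40.9, 41.4 and 40.8 in IM3 (log2 difference 1.28 ± 0.14), and Pfkp, a phosphofructokinase, had 182, 190 and 202 CPM in IM3 against 93.9, 112 and 114 (-0.85 ± 0.14). Leaving out any 1 library except IM2 C gave 1 gene higher in IM2 in place of 3, and 2 or 3 higher in IM3 in place of 5 without IM2 A, IM2 B, IM3 A or IM3 C. Lysosomal genes divided as well, with 8 of 33 higher in IM2 and 4 in IM3. Ctsd, a cathepsin, was at 1738, 1601 and 1880 CPM in IM2 and at 873, 949 and 870 in IM3 (0.96 ± 0.12), Grn (progranulin) differed by 0.81 ± 0.13, and Psap, the saposin precursor, was higher in IM3 (-0.82 ± 0.18). With the replicate block in the 6 libraries alone 14 lysosomal genes were higher in IM2 and 6 in IM3, and the 4 were 2 without IM2 A and 1 without IM3 B.

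Of the Fc receptors and Siglecs 4 of 15 tested were higher in IM2 and 3 in IM3. Fcgr4, an activating receptor of immunoglobulin G, was at 77.4, 95.1 and 93.7 CPM in IM3 and at 34.9, 28.6 and 32.9 in IM2 (-1.47 ± 0.22). Fcgrt, the recycling receptor, was higher in IM2 (0.92 ± 0.20), and Fcgr3 and the shared chain Fcer1g overlapped between the populations. Trac reads were above 1 only in libraries B of IM2 and IM3 among these 6. In IM1 the high library was A, not B, and the sum of the T and NK list reached 4228 CPM there against 252.3 in the lowest IM1 library. In the fit of the 6 libraries alone with the replicate block, Trac had an adjusted p of 0.00313 (edgeR), resting on the 2 libraries B.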
